A study of Mus musculus with 5 samples.

Results

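The calcium pump genes are 8 mouse genes that encode the ATP-driven pumps of the plasma membrane (Atp2b1, Atp2b2, Atp2b3 and Atp2b4), of the endoplasmic reticulum (Atp2a1, Atp2a2 and Atp2a3) and of the Golgi (Atp2c1), out of 21779 protein-coding genes considered. Every peak that touched one of these genes or the 10 kb on either side of it was taken, which gave 8 of the 8236 peaks of wild-type replicate 1, 6 of the 10371 peaks of wild-type replicate 2 and 0 of the 256 knockout peaks. The genes were chosen by family with the high fold enrichment at Atp2b1 already known, and their peaks were selected on position, so presence and height are described here and not tested. The data are ChIP-seq peaks of ZFP541, a germ-cell zinc finger protein, from pachytene and diplotene spermatocytes of adult C57BL/6 testis, isolated by STA-PUT sedimentation. The groups are wild type (2 libraries) and Zfp541-/- (1 library), all precipitated with a rabbit antibody to ZFP541, and wild-type input (2 libraries), which was not analysed here. The labels do not say whether the replicates came from different animals, how the knockout allele was made or whether testes were pooled. A peak list holds no marker of the cell type, so the labelled stage was not checked.

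Calcium ions carry signals in the cytosol, and P-type ATPases keep the resting level low. PMCA pumps, encoded by the Atp2b genes, push calcium out of the cell. SERCA pumps, encoded by the Atp2a genes, refill the endoplasmic reticulum, and the secretory pathway pump encoded by Atp2c1 loads the Golgi with calcium and manganese. In the male germ line PMCA4 (Atp2b4) is known as the main calcium extrusion pump of mature sperm, where it is needed for motility.

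ZFP541 peaks shared by both wild-type replicates were found at 4 of the 8 genes (29.3% of all protein-coding genes): Atp2b1, Atp2b2, Atp2a2 and Atp2c1. Atp2b1, which encodes the broadly expressed PMCA1, had by far the strongest. Atp2b4 had a weak peak in replicate 1 only, and Atp2b3, Atp2a1 and Atp2a3 had no peak in either replicate. A peak in replicate 1, shared or not, was thus found at 5 of 8 genes (33.8% of all protein-coding genes) and one in replicate 2 at 4 of 8 (39.4%). At each of the 4 genes that had a shared peak, the strongest one lay at a transcription start or gene end. At Atp2b2 and Atp2c1 this was a start inside the gene and not the outermost one.

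The sequences below are the 250 bases before 6 of the listed starts, taken from RefSeq promoters of GRCm38.p6, the assembly of mm10. They are shown 5′ to 3′ on the gene's strand, with CG dinucleotides in capitals, because the counts of these are compared between starts with and without a peak. RefSeq promoters were found for 6 of the 8 genes, with no entry for Atp2b3 and Atp2a2. The first is the start under the strongest peak (chr10:98914392-98914641, plus strand), all of whose 250 bases lie under the peaks of both replicates.
Atp2b1, first listed start: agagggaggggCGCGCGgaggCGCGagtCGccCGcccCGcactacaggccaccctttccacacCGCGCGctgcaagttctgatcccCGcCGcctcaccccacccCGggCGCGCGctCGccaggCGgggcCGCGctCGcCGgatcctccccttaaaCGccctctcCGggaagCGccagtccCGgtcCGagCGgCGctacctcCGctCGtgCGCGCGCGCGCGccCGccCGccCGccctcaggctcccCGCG
The next pair are the Atp2c1 start with a shared peak (chr9:105495134-105495383, minus strand) and the outermost Atp2c1 start, which had none (chr9:105521258-105521507, minus strand).
Atp2c1, internal start: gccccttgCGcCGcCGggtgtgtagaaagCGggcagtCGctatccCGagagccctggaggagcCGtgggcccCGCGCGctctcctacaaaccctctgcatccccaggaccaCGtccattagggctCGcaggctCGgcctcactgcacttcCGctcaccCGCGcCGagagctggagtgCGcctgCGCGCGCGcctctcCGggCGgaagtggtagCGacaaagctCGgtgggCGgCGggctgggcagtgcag
Atp2c1, outermost start: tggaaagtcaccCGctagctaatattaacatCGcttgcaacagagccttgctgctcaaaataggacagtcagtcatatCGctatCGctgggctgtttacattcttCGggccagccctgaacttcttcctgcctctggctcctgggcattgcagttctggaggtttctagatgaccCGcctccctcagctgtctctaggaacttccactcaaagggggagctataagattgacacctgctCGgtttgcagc
The same contrast at Atp2b2 is given by its innermost start, which had a shared peak (chr6:113891540-113891789, minus strand), and its outermost start, which had none (chr6:114042081-114042330, minus strand).
Atp2b2, innermost start: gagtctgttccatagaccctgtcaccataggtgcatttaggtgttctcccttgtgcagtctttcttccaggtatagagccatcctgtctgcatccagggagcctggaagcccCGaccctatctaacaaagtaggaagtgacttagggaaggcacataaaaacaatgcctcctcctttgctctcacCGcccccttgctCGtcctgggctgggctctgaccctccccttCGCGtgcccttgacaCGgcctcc
Atp2b2, outermost start: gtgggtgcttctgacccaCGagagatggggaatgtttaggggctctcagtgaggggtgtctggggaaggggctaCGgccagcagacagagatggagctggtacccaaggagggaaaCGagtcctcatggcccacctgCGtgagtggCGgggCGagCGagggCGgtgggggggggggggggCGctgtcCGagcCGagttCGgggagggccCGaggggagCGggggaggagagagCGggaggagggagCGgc
The last is the single listed start of Atp2a3, which is rich in CG and had no peak (chr11:72960919-72961168, plus strand).
Atp2a3, listed start: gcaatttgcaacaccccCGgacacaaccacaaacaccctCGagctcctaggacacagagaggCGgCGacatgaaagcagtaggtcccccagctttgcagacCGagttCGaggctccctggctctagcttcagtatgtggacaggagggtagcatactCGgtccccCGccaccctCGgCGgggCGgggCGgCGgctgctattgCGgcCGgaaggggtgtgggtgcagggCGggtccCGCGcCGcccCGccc

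Fold enrichment, the height of a peak over the background estimated by the authors' peak caller, set Atp2b1 apart. Its main peak had a fold enrichment of 20.05 in replicate 1 and 21.8 in replicate 2, with a −log10 q of 64.0 and 69.1. Both values lay far above the median of all peaks, which was 4.29 in replicate 1 and 4.03 in replicate 2. They stood at percentiles 99.8 and 99.9 of their lists. By the mean percentile over the replicates, Atp2b1 ranked 8 among the 6384 protein-coding genes with a shared peak in the same window. The Atp2b1 peak lies on chromosome 10 at 98913903 to 98915883 in replicate 1 and at 98913341 to 98916887 in replicate 2 (mm10, as are all positions here). It was wide, at 1981 bp and 3547 bp, and covered both listed starts of the gene, at 98914642 and 98915152. The summits were 15 bp apart and lay 222 bp and 207 bp upstream of the first start.

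Smaller peaks flanked the main one at Atp2b1. Upstream, replicate 1 had a peak of 4.64-fold at 98912183 to 98912452 and replicate 2 one of 4.03-fold at 98912265 to 98913030. These overlapped by 188 bp, but their summits were 463 bp apart. Downstream, replicate 1 had a separate peak of 4.29-fold at 98916318 to 98916607, inside the gene, and the wide replicate 2 peak covered all of it. No other annotated gene lies within 10 kb of Atp2b1.

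Atp2a2, which encodes SERCA2, the pump of heart muscle and of the endoplasmic reticulum of most cells, had the next highest peak. Fold enrichment was 8.59 in replicate 1 and 9.06 in replicate 2, at percentiles 88.0 and 89.1 of their lists, with a −log10 q of 16.5 and 17.0. The peaks, at 122501151 to 122502896 and 122500870 to 122503207 on chromosome 5, spanned the gene's end with the higher coordinate. Their summits were 529 bp and 456 bp inside that end and 73 bp apart. The replicates therefore gave nearly the same height and place. Anapc7, a protein-coding gene within 10 kb of Atp2a2, lies 55958 bp from the replicate 2 peak, and the pseudogene Gm22965 lies 3582 bp from it. Genes farther than 10 kb from Atp2a2 were not searched.

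Atp2c1, whose human counterpart is mutated in Hailey-Hailey disease, had a lower peak at an internal start. Fold enrichment was 6.07 in replicate 1 (105494758 to 105495344 on chromosome 9) and 5.71 in replicate 2 (105494938 to 105495725). These values lay at percentiles 73.1 and 72.1. The summits lay 147 bp and 30 bp upstream of the start at 105495133, and 25977 bp and 26094 bp inside the outer end of the gene. Replicate 2 alone had a second, weaker peak of 3.36-fold at 105493886 to 105494714, which did not touch the replicate 1 peak. The entry for the lncRNA Gm40564 begins 267 bp from the replicate 2 peak, so the listed pump start is not the only annotated feature at this site.

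Atp2b2 encodes PMCA2, a pump known from neurons and hair cells of the inner ear. Among the strongest shared peaks of the pump genes, its peak differed most in fold between the replicates. Fold enrichment was 6.79 in replicate 1 (113891213 to 113891518 on chromosome 6) and 3.97 in replicate 2 (113891306 to 113891623). The ratio of 1.71 lay above the value of 1.66 that 95% of all 6294 pairs of overlapping peaks stayed under, and the median ratio was 0.919. The place was the same, with summits 30 bp apart and 129 bp and 99 bp downstream of the start at 113891539. Of the 250 bases printed for this start, 0 lay under the replicate 1 peak and 84 under the replicate 2 peak. A second peak of 3.93-fold at 113913623 to 113913824, inside the gene, was listed in replicate 1 only.

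In the order of their levels, both Atp2b1 values lay above both Atp2a2 values, and these lay above all values of Atp2c1 and Atp2b2. The range of Atp2b2 contained that of Atp2c1, so these neighbours in the order did not differ beyond the spread of the replicates. Read depth is unknown from the peak lists. A low peak from binding in few cells and one from weak binding in many cannot be told apart in such bulk samples.

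**Figure D1:**
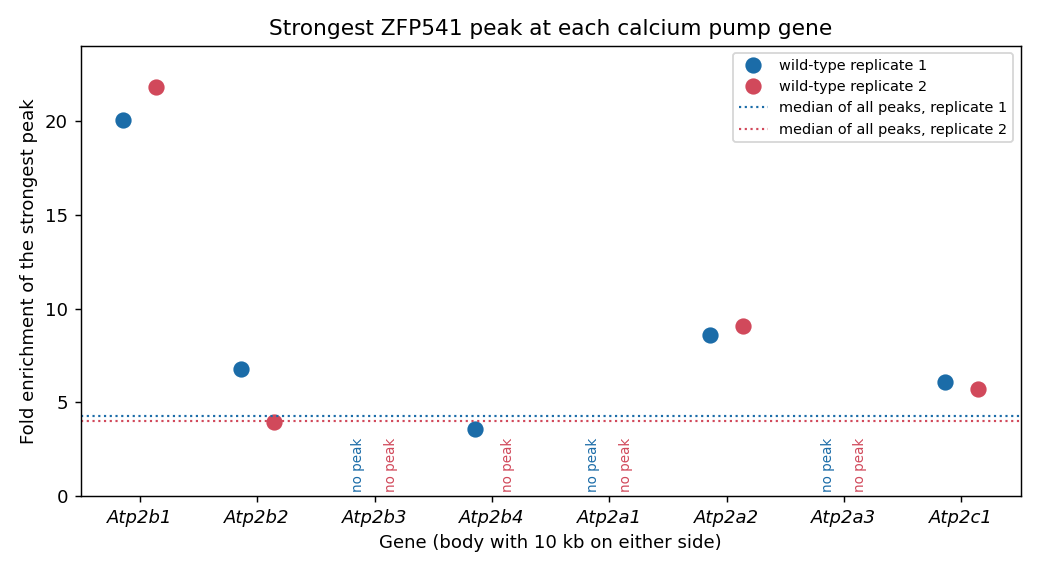
Fold enrichment (vertical axis) of the strongest peak in each wild-type replicate (points) at each of the 8 genes with 10 kb on either side, with the median of all peaks of each list as dotted lines. Atp2b1 stands at 20.05 and 21.8, above Atp2a2 at 8.59 and 9.06, and 3 genes have no peak in either replicate.

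**Figure D2:**
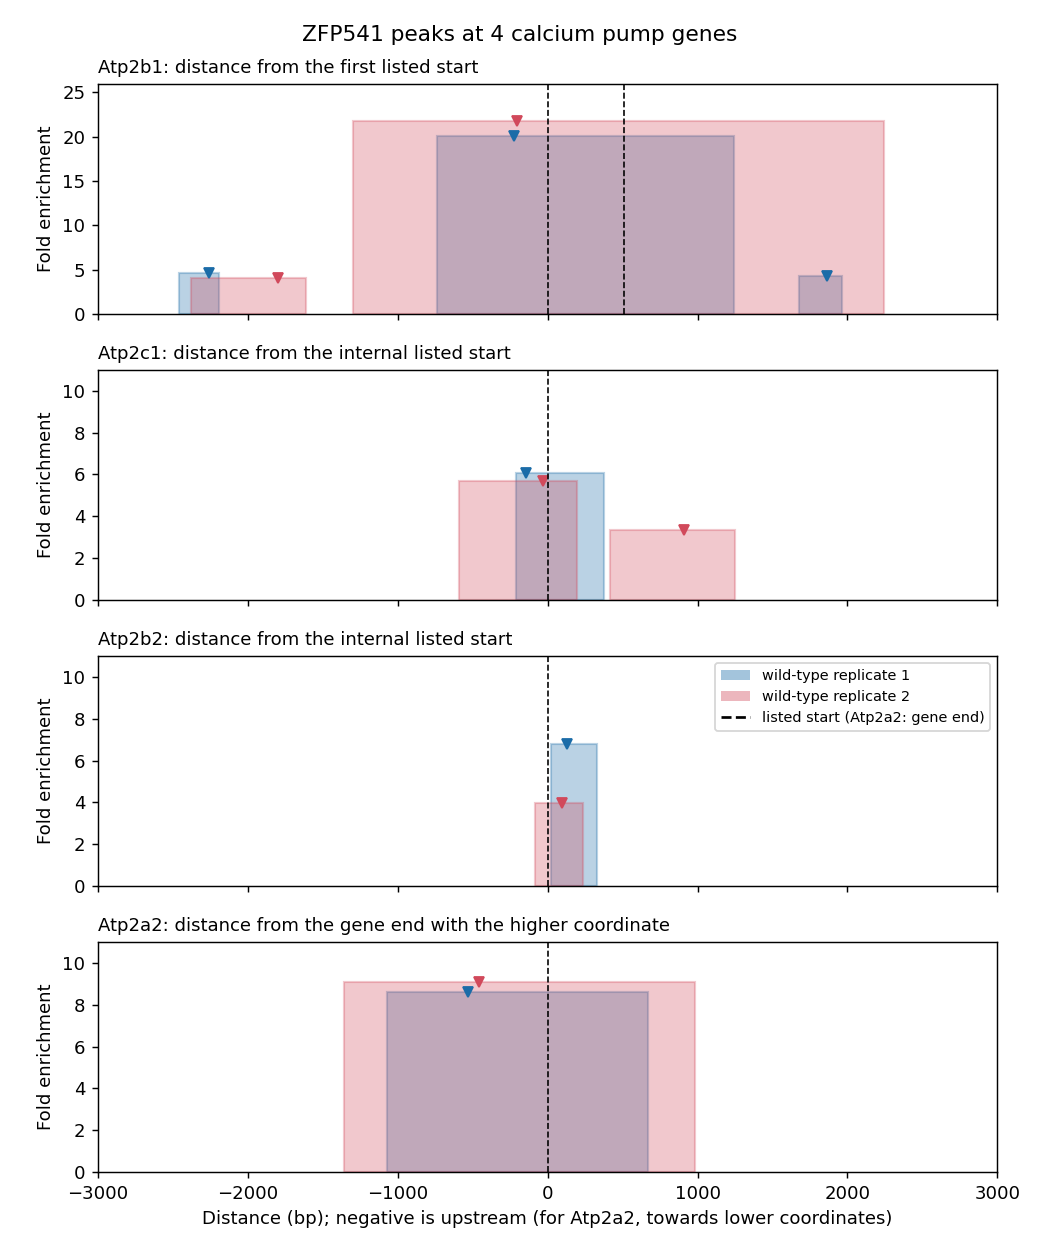
Peaks at 4 calcium pump genes, drawn as boxes from start to end with the fold enrichment as height and a triangle at the summit, against the distance in bp from a listed start (for Atp2a2, from the gene end with the higher coordinate). The Atp2b1 boxes of 1981 bp and 3547 bp cover both listed starts (dashed lines), while the Atp2b2 boxes of 306 bp and 318 bp lie at the internal start.

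The other 4 pump genes had little or no ZFP541 signal by these lists. At Atp2b4 the single peak, in replicate 1 (133716676 to 133716886 on chromosome 1), had a fold enrichment of 3.57, at percentile 30.4 of its list. It lay inside the gene, 36982 bp downstream of the single start listed, at 133753747. That start is itself internal, since the upstream end of the gene is at 133801059. Atp2a1, which encodes the fast skeletal muscle pump SERCA1, had its nearest peaks 16.9 kb away in replicate 1 and 16.6 kb away in replicate 2. These are peaks at Rabep2, with folds of 5.07 and 6.71, and are the closest to fall outside the 10 kb limit. The farthest peak inside it lay 2178 bp from Atp2b1. The nearest replicate 2 peak to Atp2a3, which encodes SERCA3, was 25.8 kb away at Camkk1 (4.03-fold). Atp2b3, an X-linked gene that encodes the PMCA3 of neurons, had its nearest wild-type peaks 251.4 kb and 325.6 kb away. Few X-linked genes had a shared peak at all: 37 of 963 (3.84%), against 6347 of 20560 autosomal genes (30.9%). A missing peak does not show that a site was unbound.

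No knockout peak lay at any of the 8 genes, and the percentage called over all protein-coding genes was 0.340% (74 of 21779). Their absence at 8 genes is thus what nearly all genes show. The knockout peak nearest to one of them was 107.2 kb from Atp2b4, with a fold of 2.3, and at Atp2b1 the nearest was 26617.1 kb away. The knockout list began at a −log10 p of 4.47, a value that 13 of the 14 wild-type peaks at the pump genes reached. The exception was the weaker Atp2c1 peak of replicate 2, at 4.37. With 1 knockout library, no test between the genotypes was made.

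Set against all genes, 4 of 8 pump genes with a shared peak compares with a background of 29.3% (6384 of 21779). The share is higher among longer genes, and the pump genes are long, with a median of 84.5 kb against 17.2 kb for all genes. All 3 pump genes over 100 kb (Atp2b1, Atp2b2 and Atp2c1) had a shared peak, where 41.2% of all genes of that length did. Of the 4 genes of 30 to 100 kb, 1 did (Atp2a2), against 38.2%, and the single gene under 30 kb (Atp2a1) did not, against 24.2%. With 8 genes chosen with peaks in view, these counts are descriptions. At a −log10 q of at least 10, Atp2b1 and Atp2a2 kept a shared peak, and the background was 10.0%.

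By an overlap of at least 1 bp, most peaks at the pump genes were found in both wild-type libraries. Of the 8 replicate 1 peaks, 6 (75%, 95% exact binomial interval 34.9 to 96.8) overlapped a replicate 2 peak, against 73.7% of all replicate 1 peaks. Of the 6 replicate 2 peaks, 5 (83.3%, 35.9 to 99.6) overlapped a replicate 1 peak, against 54.7%. Both intervals contain the value for all peaks, they cover counting error only, and several peaks share a gene. The main and the downstream Atp2b1 peaks of replicate 1 overlapped the same replicate 2 peak. With a reciprocal overlap of at least 50%, the counts were 4 of 8 and 4 of 6. In replicate 1 the peaks found in 1 library were the weakest ones, at Atp2b4 (3.57-fold) and inside Atp2b2 (3.93-fold).

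**Figure D3:**
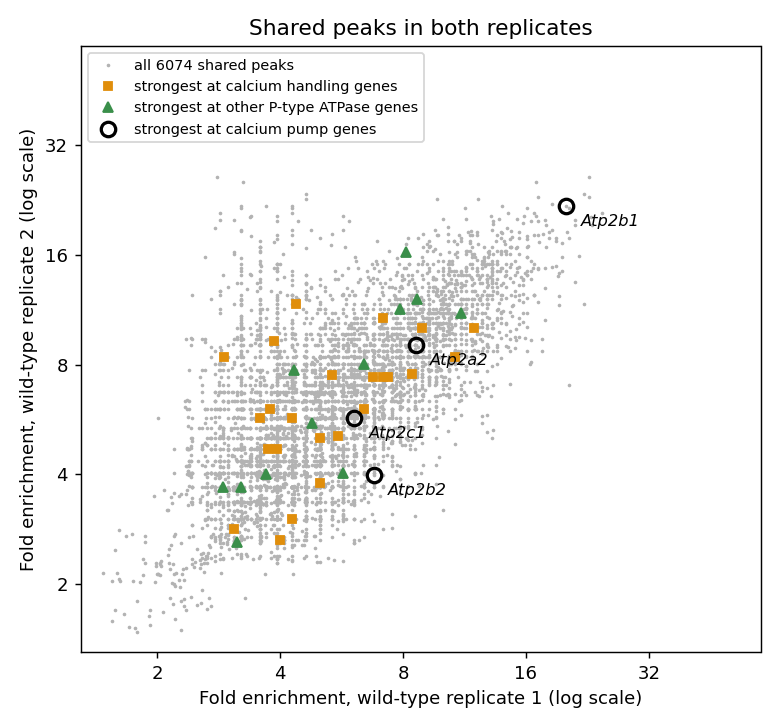
Fold enrichment in wild-type replicate 1 against replicate 2 (both axes on a log scale) for all 6074 shared peaks (grey), with the strongest shared peak of each calcium pump gene circled and those of calcium handling and other P-type ATPase genes in colour. Atp2b1 lies at the upper end of both axes, and Atp2b2 lies toward higher values in replicate 1.

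By fold enrichment in the 2 replicates, the genes whose strongest shared peak was nearest to that of Atp2b1 were Casz1, Zfp541 and Macroh2a1. Their distances on the log2 scale were 0.03, 0.11 and 0.15. Casz1, a zinc finger gene, had folds of 20.4 and 21.5. Zfp541, the gene altered in the knockout, had 18.6 and 22.2, and Macroh2a1, a histone variant gene, had 21.1 and 19.9. The measure uses only these 2 values per gene.

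Where a shared peak lay at a pump gene with starts far apart, it lay at an internal start. Atp2b2 has 3 listed starts and Atp2c1 has 2, more than 2 kb apart from the outermost. Neither gene had a peak of either replicate over its outermost promoter. Among all protein-coding genes with such separate starts and a shared peak within 1 kb of one of them, 285 of 421 (67.7%) had it at the outermost start only, 109 (25.9%) at internal starts only and 27 (6.41%) at both. The pattern of Atp2b2 and Atp2c1 is therefore the less common of the single-site patterns. When the window was set at the 2 ends of each gene entry in place of listed starts, 2 pump genes (Atp2b1 and Atp2a2) were counted as having a shared peak there, and not 4. The background was 20.7% by gene ends and 21.3% by listed starts. Starts were listed for 17492 of the 21779 genes, and gene ends stand in for the others in the second value. Promoters on chromosome 18 were not analysed here, so its genes are among those others and are outside the 421 genes and all counts over listed promoters.

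The summits also stood on either side of the starts. Over 3739 shared peaks with a replicate 1 summit within 1 kb of a listed start, the median summit was 109 bp downstream, and the quartiles ran from -41 bp (upstream) to 281 bp (downstream). The Atp2b2 summits, at 129 bp and 99 bp downstream, lay near that median. Those of Atp2b1, at 222 bp and 207 bp upstream, and of Atp2c1, at 147 bp and 30 bp upstream, lay on the other side of the start. For Atp2c1 the replicate 2 value fell within the quartiles.

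CpG content was high at 2 of the 3 pump genes that have both a listed start and a shared peak. In the 300-base promoters, which run from 250 bases before a start to 50 after it, the Atp2b1 starts held 54 and 45 CG and the internal Atp2c1 start 36. The outermost Atp2c1 start, with no peak, held 8. Promoters without a peak at Atp2b4 and Atp2a1 held 4 each. The Atp2b4 start listed is internal, so the outer end of that gene was not scored. Atp2b2 ran the other way: its innermost start, with a shared peak, held 12, and its outermost, with none, held 27. Of the 250 bases before that innermost start, which held 6 of its CG, 0 lay under the replicate 1 peak and 84 under the replicate 2 peak. The CG content of the peaks themselves was not counted. Atp2a3 held 25 and had no peak. Over all 21263 listed promoters of protein-coding genes, 49.8% of those with 25 to 67 CG overlapped a shared peak. This share was 17.6% with 14 to 24 CG, 3.77% with 5 to 13 and 0.232% with 0 to 4. The innermost Atp2b2 start belongs to a class in which a shared peak is uncommon. Atp2a3 and the outermost Atp2b2 start, with 25 and 27 CG, lie at the lower edge of the class in which it is most common.

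**Figure D4:**
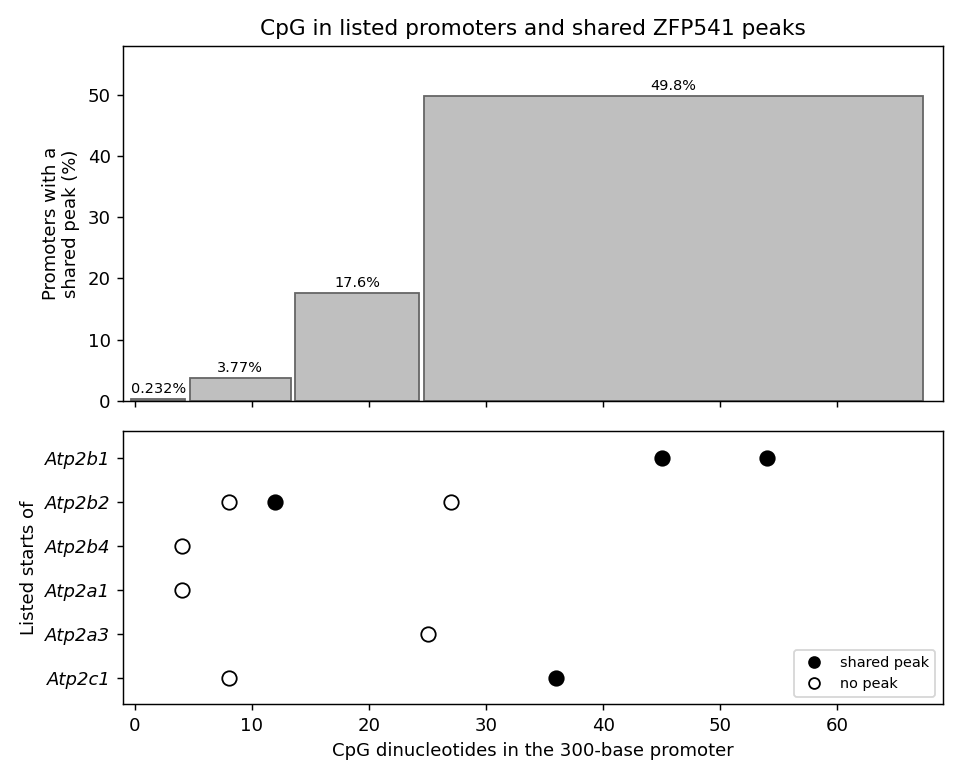
Above, the percentage of all listed 300-base promoters that overlap a shared peak, in 4 classes by number of CG dinucleotides (horizontal axis). Below, the listed starts of 6 pump genes on the same axis, filled where a shared peak overlaps the promoter: the Atp2b1 starts at 54 and 45 are filled, and the Atp2a3 start at 25 is open.

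Short motifs were read from the same 300-base promoters on both strands. GGGCGG, the GC box, was found 4 and 3 times at the Atp2b1 starts, 4 times at the internal Atp2c1 start and 2 times at the innermost Atp2b2 start. It was absent at the outermost Atp2c1 start, but was present 5 times at Atp2a3 and 3 times at the outermost Atp2b2 start, which had no peak. Over all listed promoters 46.2% held it, and 79.3% of those under a shared peak did; it contains CG, so it varies with CpG content. CACGTG, the E-box, was present at the first Atp2b1 start and at no other pump promoter listed. It was held by 7.84% of all promoters and by 13.2% of those under a shared peak, and it too contains CG. CCAAT, which holds no CG, was found only at Atp2a1 among the pump promoters. It was in 38.2% of all promoters and in 34.2% of those under a shared peak.

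Genes that act on calcium beside the pumps were compared by the same count. Of 60 calcium handling genes, 24 (40%) had a shared peak against the background of 29.3%, and 17 (28.3%) had it at a listed start or gene end against 21.3%. Their median length was 54.7 kb, so this list too is longer than the genome's 17.2 kb. The median folds of their strongest shared peaks were 5.0 and 6.71, against 5.80 and 6.38 over all genes with a shared peak. None had a knockout peak. With replicate 1 left out, 37 of the 60 genes had a peak, where 39.4% of all genes did, and with replicate 2 left out 29 did, where 33.8% of all genes did.

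The groups within that list are small and were chosen with earlier results known, so their counts are given as descriptions and differences between them were not tested. For all genes the share with a shared peak was 24.2% under 30 kb, 38.2% at 30 to 100 kb and 41.2% over 100 kb. Of the 8 voltage-gated calcium channel genes, which are all in the longer classes, 6 had one, led by Cacna1a (11.9 and 10.1-fold in replicates 1 and 2) and Cacna1c (8.93 and 10.1). All 3 calmodulin genes, each under 30 kb, which encode the calcium sensor that activates PMCA pumps, had one. Calm3 was similar in both libraries (5.56 and 5.11), and Calm2 was not (2.92 and 8.39). Both PMCA partner genes, Nptn (7.14 and 7.38) and Bsg (4.37 and 11.7), had one; neuroplastin and basigin are subunits of PMCA complexes. Among genes of store-operated calcium entry, 4 of 6 had one: Orai3, Stim1, Stim2 and Saraf, a regulator of that entry. Folds were 8.40 and 7.55 at Orai3, 5.0 and 5.04 at Stim1, 5.0 and 3.79 at Stim2 and 5.36 and 7.48 at Saraf. Only 2 of the 6, Stim1 and Stim2, had a shared peak within 1 kb of a listed start or gene end. Whether the peaks counted for Orai3 and Saraf lie at a neighbouring gene was not examined. Orai1 had a peak in replicate 1 only (2.58) and Orai2 in replicate 2 only (3.69).

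None of the 6 release channel genes of the endoplasmic reticulum, which are also all in the longer classes, had a shared peak. Itpr2 (3.69) and Itpr3 (2.69) had a peak in replicate 2 only, Ryr1 (3.08) and Ryr3 (3.93) in replicate 1 only, and Itpr1 and Ryr2 had none. Neither SERCA inhibitor gene, Pln or Sln, had a peak in any library. Of the 8 sodium/calcium exchanger genes, 2 had a shared peak, with Slc8a1 at 7.14 and 10.7, though not within 1 kb of a listed start. Of 8 mitochondrial calcium genes, 2 did, with Micu2 at 10.7 and 8.39. Of 8 genes of the CatSper channel of sperm, 2 did, Catsper2 and Catsperd, the latter with none within 1 kb of a listed start. All these folds are below those of Atp2b1.

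Among 28 other P-type ATPase genes, 12 (42.9%) had a shared peak, against 29.3% of all genes. Their median length was 102 kb, and among all genes over 100 kb the share was 41.2%, close to that of the list. The lipid flippase family, most of whose genes are over 100 kb, held 7 of the 12 among its 14 genes, led by Atp8a1 (11.1 and 11.1), Atp11b (8.13 and 16.3), Atp11a (8.68 and 12.1) and Atp9a (7.86 and 11.4). Atp13a3, a polyamine transporter gene, had 6.43 and 8.06. Atp2c2, the only calcium pump gene outside the 8, had no peak in any library, and neither had the copper pump genes Atp7a and Atp7b. None of these 28 genes reached the folds of Atp2b1, and Atp2a2, at 8.59 in replicate 1 and 9.06 in replicate 2, lay close to Atp11a and Atp11b in replicate 1 and below both in replicate 2.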

How the data were processed

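ChIP-seq peak lists of 3 libraries were analysed, and the samples were grouped by their titles. Per the submitters' processing notes, deepTools 3.5.0, MACS2 2.2.6, Picard, SAMtools 1.10, Bowtie2 2.3.5 and cutadapt 2.6 were used with mm10. Settings, control and threshold of the peak calls are not stated in the sources used here. Each replicate has its own list. For every peak the deposited lists hold a fold enrichment (height as a ratio to the background that the caller estimated), a −log10 p and a −log10 q, the authors' score (10 times the −log10 q without decimals) and the summit offset, all of them the authors' own values and used only to describe, rank or filter peaks. Read depth is unknown.

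Peaks of the wild-type replicates sharing at least 1 bp counted as shared. Gene positions were read from RefSeq (GRCm38.p6), without 108 protein-coding entries before 3 Mb that carry scaffold coordinates. Starts and strands came from the RefSeq promoter table, and either gene end was used where none was listed (all of chromosome 18 included). Of the list names, Catspere was matched through a synonym to Catspere1, and Atp10d is a pseudogene entry there and was left out. The 8 genes and both lists were chosen with earlier results of these data known, as were the groups within the lists. Named were all 8 genes, up to 5 genes of each list by mean percentile of fold, fixed channel and regulator genes, and the 3 nearest to Atp2b1 by log2 fold. Genes outside this rule (Calm2, Calm3, Nptn, Bsg, Saraf and other single members of small groups) were named after their values were seen. The comparison of outermost and internal starts was added after the data were seen. Overlap counting was tested on simulated data. Alternatives are in the closing section. Analyses used matplotlib 3.10.9, scipy 1.17.1, pandas 2.3.3, numpy 2.4.6 and Python 3.11.15.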

Additional observations from a re-analysis of the deposited data

How the results depend on the processing

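Atp2b1 and Atp2a2 had a shared peak under every alternative tried. The count of pump genes with a shared peak, 4 of 8, was 2 with −log10 q held to 10 or more (Atp2b2 and Atp2c1 were lost), 3 with 5 or more (Atp2b2 was lost), 5 with 25 kb on either side (Atp2a1 was added), and 4 to 5 with either replicate left out (Atp2b4 was added from replicate 1). The count at listed starts, 4, was 2 with a −log10 q of 10 or more and 2 by gene ends, and it was 4 without either replicate. The count at internal but not outermost starts, 2, was 1 with a −log10 q of 5 or more and 0 with 10 or more; these settings were chosen after seeing the data. With the same minima of 5 and 10, calcium handling genes with a shared peak fell from 24 to 13 and 8, other P-type ATPase genes from 12 to 6 and 4, and all protein-coding genes from 6384 to 3758 and 2177. With each replicate alone these counts were 29 to 37, 12 in both cases and 7371 to 8579. The share of replicate 1 peaks found in replicate 2 was 100% with a minimum of 10 (2 of 2). The share of replicate 2 peaks found in replicate 1 was 100% with minima of 5 (3 of 3) and 10 (2 of 2), and with the smallest −log10 p of any knockout peak as the minimum (5 of 5). The stricter settings hold fewer peaks by construction. All other counts stayed within 1.5 times the reported one, though not all were close to it: with a reciprocal overlap of 50%, 6384 genes became 4782 and 24 calcium handling genes became 19. All other shares stayed inside their binomial intervals, the lowest being 50% (from 75%) and 66.7% (from 83.3%), also with that overlap. The folds of the strongest shared peaks did not move in any of 74 recomputed values. These are deposited values that the settings only filter, and a gene that lost its peak gave no value, so little movement was possible. No pump gene had a knockout peak under any setting run. Stricter cuts cannot add a peak, and the nearest knockout peak, 107.2 kb from Atp2b4, lies beyond the widest window of 25 kb. No paired analysis was possible because no result comes from a test and the wild-type inputs that share replicate numbers with the ChIP libraries were not analysed here. Unknown depth and 1 knockout library limit what a missing peak shows.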

Other observations

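Beyond the 10 kb limit, the nearest peaks to Atp2b2 were stronger than its own, and those to Atp2b1, Atp2a2 and Atp2c1 were weaker. The nearest peaks to Atp2b2 outside its window, 45.8 kb and 44.8 kb away, had folds of 10.5 in replicate 1 and 14.4 in replicate 2 and lay at Tatdn2, and both exceeded the peak at the internal Atp2b2 start. The nearest to Atp2b1 outside its window, 80.8 kb and 80.5 kb away at Poc1b and Galnt4, had folds of 5.09 and 7.72, well under the Atp2b1 peak. Near Atp2b4, the closest replicate 1 peak outside the window (107.5 kb away, 2.14-fold) lay beside the knockout peak of 2.3-fold at 107.2 kb.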
